A study of Mus musculus with 9 samples.

Results

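The 2 doses of methylphenidate (MPH) were compared directly with each other in the substantia nigra: 3 arrays labelled 10 mg/kg MPH against 3 arrays labelled 1 mg/kg MPH, 6 of the 9 arrays of the series, chosen by the deposited treatment labels alone. The 3 saline arrays entered neither side of this comparison. They served in checks of the labels and replicate numbers and in an alternative fit of all 9 arrays. Otherwise they are given only beside a value they bear on. Swiss-Webster mice were injected intraperitoneally once a school day, from postnatal day 28 and for 3 months, with saline or with MPH at a dose of 1 or of 10 mg/kg. A drug washout of 7 days followed, and RNA of the dissected substantia nigra was then read on Affymetrix HT MG-430 PM microarrays. The strain is outbred, the labels give no sex, and nothing states whether an array holds 1 animal or a pool, so the p-values measure the spread between these arrays. On these arrays each transcript is measured by a group of short probes, a probe set, and the deposited values are log2 intensities, on which a difference of 1 is a doubling. Leaving out 104 control probe sets of 45141, all 45037 others were compared, of which 28898 name a single gene and cover 17097 genes.

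MPH blocks the dopamine and noradrenaline transporters and so raises the amount of both transmitters outside the cell. The dopamine neurons of the substantia nigra make dopamine from tyrosine with tyrosine hydroxylase (Th), load it into vesicles with the vesicular monoamine transporter (Slc18a2) and take it back up with the dopamine transporter (Slc6a3), the protein on which MPH acts. They lie close to the thalamus in front, the raphe and pons behind and the hippocampus above, so that a dissected piece can hold RNA of several regions, and bulk RNA cannot tell fewer cells of a type from less RNA per cell.

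Dopamine neuron genes were clearly measured in every array. Th lay between 10.31 and 10.63 and Slc6a3 between 11.63 and 11.86 in the 6 MPH arrays, where the median of 23 nonspecific control probe sets was 2.93. Values near 3 are therefore close to background. The doses below are those of the deposited labels, and they may be exchanged. In the published gene lists, 76 of the 115 entries for the lower dose were found on the arrays. All 76 equal the mean of the arrays labelled 10 mg/kg minus the saline mean (tolerance 5e-04). Of 54 entries for the higher dose 36 were found, and all 36 equal the same difference for the arrays labelled 1 mg/kg. The array values do not show which assignment is right, and if the labels are exchanged every sign below turns while its size stays.

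One array of each label stood apart. Replicate 1 at 10 mg/kg was alone in one of 2 clusters of the 6 arrays and had 269 probe sets at least 1 above the mean of the other 5 arrays and 46 at least 1 below, compared with 5 to 19 above and 3 to 66 below in the others. Replicate 2 at 1 mg/kg differed from the other 5 in genes of the sex chromosomes. Xist, the RNA that silences the second X chromosome of females, was at 9.0 in that array and between 2.99 and 4.62 in the other 5, and the Y-linked genes Eif2s3y, Kdm5d and Uty were at 4.11, 4.70 and 3.53 where the others reached at least 6.87, 6.24 and 4.95. The values of each replicate number averaged over the 3 groups were nearly equal for a probe set (median SD 0.018 over the 3 numbers, compared with 0.075 over the 3 group means), so that a value peculiar to one array stands opposite to lower or higher values in its same-numbered partners. Xist, for example, was at 2.99 both in replicate 2 at 10 mg/kg and in saline replicate 2. The replicate number was therefore kept as a block in the linear model (limma), and results are also given without replicate number 1 of both labels, which holds the first of these arrays. The 3' to 5' difference of Actb, which grows as RNA degrades, overlapped between the labels (1.10, 1.03 and 1.12 at 10 mg/kg and 1.04, 1.19 and 1.13 at 1 mg/kg).

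No probe set differed between the doses at an adjusted p of 0.05 in limma with the replicate block (0 of 45037, 0%, smallest adjusted p = 0.329). At an unadjusted p of 0.05 there were 2689 probe sets, 5.97% of those tested, 1232 higher (2.74%) and 1457 lower (3.24%) at 10 mg/kg. Without the block 1 probe set was called (0.00222%), for which no gene is named here (mean log2 level 5.63 at 10 mg/kg and 4.24 at 1 mg/kg, difference 1.39, adjusted p = 0.0164 by limma without the block and 0.329 with it), and 5199 (11.5%) lay under an unadjusted p of 0.05. The local pooled error test, in which probe sets of similar brightness share 1 error estimate, called 204 probe sets (0.453%), 79 higher (0.175%) and 125 lower (0.278%). The typical 95% interval of a difference reached 0.23 to either side, and the 5th and 95th percentiles of all differences were -0.22 and 0.23. All 3 arrays of one label lay above all 3 of the other in 3928 probe sets higher at 10 mg/kg (8.72%) and 4253 lower (9.44%).

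**Figure D1:**
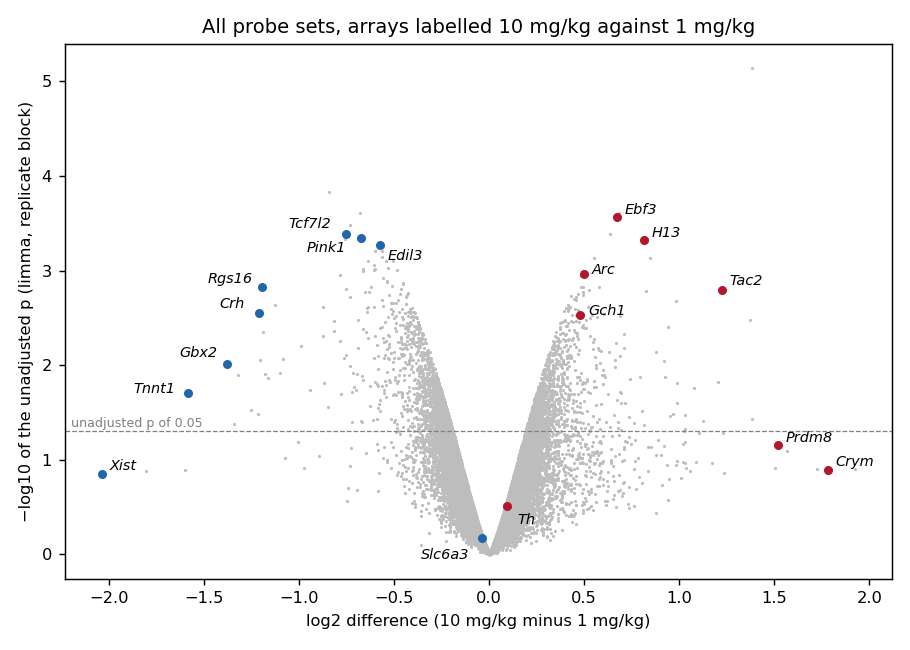
Log2 difference 10 mg/kg minus 1 mg/kg, by label (horizontal axis) against -log10 of the unadjusted p of limma with the replicate block (vertical axis) for 45037 probe sets, 1 grey point each, with named genes in red where higher at 10 mg/kg and blue where lower. The thalamic genes Rgs16, Gbx2 and Tnnt1 lie at the left, Xist and Crym lie far out at low significance, and Th and Slc6a3 lie near 0.

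The 4 sex-linked genes differed mostly through a single array. Apart from these, the list whose median stood farthest from 0 was that of the thalamus, the relay region in front of the substantia nigra. Of 22 genes enriched in thalamic neurons, 21 were measured, 18 of them lower at 10 mg/kg and 3 higher, with a median log2 difference of -0.72 (0.0027 over all genes). All 18 lay under an unadjusted p of 0.05, as did 1 of the 3 (Calb2), where 2.93% of all genes were lower and 2.8% higher at that level, and in 11 of 21 (52.4%) all arrays of one label lay below all of the other, which was so, in either direction, for 17.6% of all genes. The list was chosen with earlier results of these data known, so these shares describe it and do not test it. No gene of the list passed after adjustment with the block, and the local pooled error test called 13 of the 21, all lower. Without replicate number 1 the median was -0.43 with 20 of 21 lower, and without replicate number 2 it was -0.88. The mean of the list in each array, relative to the 6 arrays, was -0.82, 0.16 and -0.37 at 10 mg/kg and 0.37, 0.49 and 0.16 at 1 mg/kg. Array 2 of the higher dose and array 3 of the lower dose thus stood at the same level. The saline arrays were at 0.03, -1.11 and -0.06 on this scale, a spread wider than the difference between the doses.

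Transcription factors that define the thalamus were among these genes. Gbx2, a homeobox factor needed for thalamic neurons to form, had log2 levels of 4.32, 5.92 and 4.83 at 10 mg/kg and 6.77, 6.33 and 6.11 at 1 mg/kg, a difference of -1.38 (SE 0.36, n = 3 arrays per label, adjusted p = 0.82 by limma). The groups did not overlap, and the lowest value was that of replicate 1. Lhx9, a LIM homeobox factor, had levels of 4.63, 5.23 and 4.62 against 5.69, 5.66 and 5.41 (difference -0.76, SE 0.13). Tcf7l2, the Wnt pathway factor of postmitotic thalamic neurons, is measured by 4 probe sets, and all were lower, with differences from -0.75 to -1.09. The one with the smallest p had levels of 3.95, 4.80 and 4.03 against 4.87, 5.35 and 4.81 (difference -0.75, SE 0.10, adjusted p = 0.82), just short of overlap, and the brightest one did overlap. Rora, a nuclear receptor, had levels of 8.18, 9.30 and 8.87 against 9.66, 9.94 and 9.38 (difference -0.88, SE 0.20), with 4 dimmer probe sets from -0.55 to 0.03, and Lef1, a factor of the same Wnt pathway, differed by -0.43 at a level near 4.

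The signalling and structural genes of thalamic neurons that follow had their lowest value in replicate 1 at 10 mg/kg. Rgs16, which switches off G-protein signals, had levels of 6.25, 7.49 and 6.53 against 8.0, 8.12 and 7.73, a 2.29-fold lower mean (difference -1.20, SE 0.21, 95% interval -1.71 to -0.68, adjusted p = 0.82), and its other probe set differed by -1.17. These 2 probe sets did not overlap between the doses. Tnnt1, a troponin of slow muscle that also marks thalamic neurons, had the most negative difference of the list, with levels of 6.31, 8.82 and 7.86 against 9.51, 9.41 and 8.84 (difference -1.59, SE 0.49). Its groups did not overlap, but without replicate number 1 the difference was -0.78. Prkcd, a protein kinase C, was at 6.92, 9.37 and 8.46 against 9.57, 9.88 and 8.96 (difference -1.22, SE 0.43), and here array 2 of the higher dose lay above array 3 of the lower dose, as it did for the actin-binding Synpo2 (difference -1.32, SE 0.37) and the receptor partner Ramp3 (difference -1.25, SE 0.43). Without replicate number 1 these 3 genes differed by -0.50, -0.72 and -0.55. Dimmer probe sets of Synpo2 did not share a direction, at 0.34 and -0.15.

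Smaller differences in the list were seen for channels and enzymes. Cacna1g, the T-type calcium channel of thalamic burst firing, was at 7.46, 7.90 and 7.58 against 7.93, 8.08 and 7.93 (difference -0.33, SE 0.09). Kcnc2, a potassium channel of fast-spiking neurons, differed by -0.40 (SE 0.14), and Adarb1, which edits glutamate receptor RNA, by -0.41 (SE 0.09). Between these and the leading genes lay Plekhg1 (-0.73), Ptpn3 (-0.72), Ntng1 (-0.69), Pdp1 (-0.55) and Amotl1 (-0.28). The 3 members on the other side of 0 were Slc17a6, the vesicular glutamate transporter shared by many regions (0.09, SE 0.10), Zic4 (0.13, SE 0.32) and the calcium buffer Calb2, which dopamine neurons also express (0.44, SE 0.15). Calb2 was higher in array 1 of the higher dose and low in array 2 of the lower dose.

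**Figure D2:**
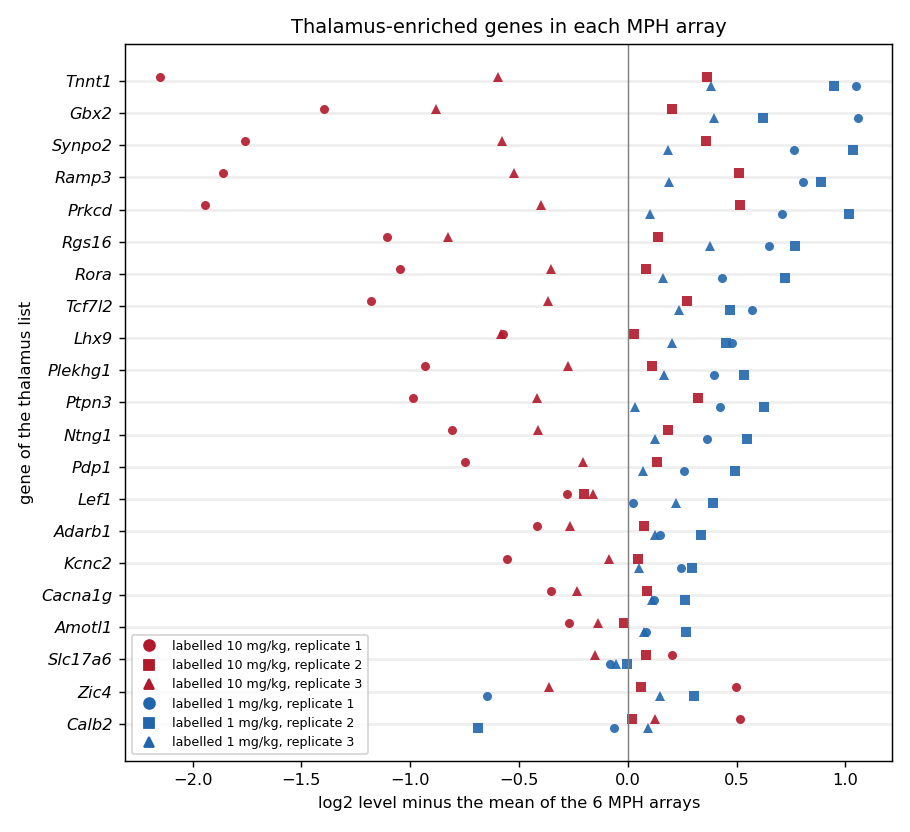
Log2 level of each of the 21 measured thalamus genes in each MPH array, minus the mean of the 6 arrays (horizontal axis), with red for the label 10 mg/kg and blue for 1 mg/kg, and circles, squares and triangles for replicates 1, 2 and 3. Red circles lie farthest to the left for most genes, and in 11 of the 21 all red points lie left of all blue points. In several others, among them Prkcd, Synpo2 and Ramp3, red squares lie among the blue points. Slc17a6, Zic4 and Calb2 do not follow the rest.

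Other genes outside that list had the same arrays low. Shox2, a homeobox factor, was at 6.20, 8.97 and 8.0 at 10 mg/kg and 9.23, 9.52 and 8.44 at 1 mg/kg (difference -1.34, SE 0.51, and -0.50 without replicate number 1). Gabrd, the delta subunit of GABA-A receptors outside synapses, was at 4.32, 6.08 and 5.20 against 6.33, 6.72 and 6.13, without overlap (difference -1.19, SE 0.26). Its usual partner Gabra4, the alpha4 subunit, was at 8.85, 9.48 and 8.97 against 9.39, 9.94 and 9.50 (difference -0.51, SE 0.08, adjusted p = 0.82), and its second probe set differed by -0.63. Of 13 measured GABA-A subunits these were the 2 under an unadjusted p of 0.05, both lower, and the list as a whole had a median of -0.01 with 6 higher and 7 lower. Crh, corticotropin-releasing hormone, was at 4.13, 5.05 and 4.19 against 6.05, 5.66 and 5.30 (difference -1.21, SE 0.24, no overlap). The genes of the thalamus list and Shox2, Gabrd, Gabra4 and Crh had an adjusted p of 0.82 by limma, except Slc17a6 (0.90) and Zic4 (0.96).

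Among single genes outside any region list, the one with the smallest p among those higher at 10 mg/kg was Ebf3, a developmental transcription factor. It had levels of 5.51, 5.12 and 5.29 against 4.72, 4.50 and 4.69, a 1.59-fold higher mean (difference 0.67, SE 0.08, adjusted p = 0.82 with the block and 0.30 without it), and its 2 other probe sets were also higher (0.38 and 0.16). H13, the signal peptide peptidase, was at 5.87, 5.51 and 5.33 against 4.87, 4.61 and 4.78 (difference 0.82, SE 0.11). Its 5 other probe sets lay between -0.13 and 0.23, so this difference belonged to a single probe set. Mmd was at 5.32, 5.19 and 5.34 against 4.67, 4.72 and 4.81 (difference 0.55, SE 0.08), and its 2 brighter probe sets differed by 0.61 and 0.35.

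Tac2, the precursor of the neuropeptide neurokinin B, was the most different of the neuropeptides that were higher. Its levels were 6.33, 5.34 and 6.58 at 10 mg/kg and 5.00, 4.75 and 4.84 at 1 mg/kg, a 2.34-fold higher mean (difference 1.22, SE 0.22, 95% interval 0.69 to 1.76), and 1.17 without replicate number 1. Of the 17 neuropeptide genes 11 were higher and 6 lower, with a median of 0.11 that was -0.05 without replicate number 1. Further genes without overlap were Tdp1, which repairs DNA ends blocked by topoisomerase (0.52, SE 0.09), Slc30a10, a manganese exporter (0.46, SE 0.08), Dbr1, which opens intron lariats (0.47, SE 0.09), Rbm28, a nucleolar protein (0.46, SE 0.09), Erc1, a scaffold of the presynaptic active zone (0.54, SE 0.11), and Usp3, a histone deubiquitinase (0.46, SE 0.09). Other probe sets did not follow for Erc1 (3 probe sets from -0.06 to 0.05) and Slc30a10 (-0.04), and were smaller for Rbm28 (0.11) and Usp3 (4 probe sets from -0.07 to 0.35). Usp3 was the most even of these, at 5.37, 5.36 and 5.35 against 5.09, 4.79 and 4.83. Gucy1a1, a subunit of the receptor for nitric oxide, differed by 0.46 (SE 0.09) in one probe set and by -0.43 and -0.26 in its 2 others on the other side of 0.

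Genes lower at 10 mg/kg included Pink1, the mitochondrial kinase whose loss causes a familial form of Parkinson's disease. One of its 2 probe sets was at 9.01, 9.48 and 9.57 against 9.79, 10.23 and 10.07, a 1.59-fold lower mean without overlap (difference -0.67, SE 0.09, adjusted p = 0.82). The other, brighter probe set differed by 0.0059 (SE 0.11), so the 2 did not give the same result for this gene. Edil3, a secreted matrix protein, was at 5.96, 5.84 and 6.02 against 6.44, 6.47 and 6.64 (difference -0.57, SE 0.08), and its second probe set was lower too (-0.28, SE 0.11). Armc9, a protein of the ciliary base, was at 5.19, 5.27 and 5.25 against 5.93, 5.76 and 5.82 (difference -0.60, SE 0.09), while its 6 other probe sets, most of them dimmer, lay between -0.17 and 0.13. Galnt9, a glycosyltransferase, was at 6.45, 6.89 and 6.72 against 7.32, 7.59 and 7.15 (difference -0.67, SE 0.11). Clmn (-0.53, SE 0.08), the Bcl-2 relative Bok (-0.51, SE 0.09), the cell cycle phosphatase Cdc25b (-0.54, SE 0.08), the cGMP-dependent kinase Prkg2 (-0.54, SE 0.09) and Tmem132c (-0.62, SE 0.11) also did not overlap. Each of these genes kept its direction without replicate number 1, with differences from -0.48 to -0.62. Across all genes, 1482 (8.67%) lay lower without overlap and 1529 (8.94%) higher. Lack of overlap was a condition for choosing the genes named by smallest p, in either direction, so it is no separate result for them.

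Dopamine neuron genes differed little between the doses. Of 31 measured genes, 20 were higher at 10 mg/kg and 11 lower, with a median difference of 0.06 (0.07 without replicate number 1), where 51% of all genes were above 0. In 6 of them (19.4%, 17.6% over all genes) the arrays did not overlap. By limma 0 passed after adjustment, with 5 higher and 1 lower at an unadjusted p of 0.05, and the local pooled error test also called 0. The list's mean, relative to the 6 arrays, was -0.010, 0.043 and 0.084 at 10 mg/kg and -0.082, -0.014 and -0.021 at 1 mg/kg. All 3 arrays of the higher dose thus lay above all 3 of the lower dose, but by a small margin. The saline arrays were at 0.37, 0.47 and 0.32. The enzymes and transporters of dopamine handling were close to equal. Th was at 10.45, 10.63 and 10.51 against 10.31, 10.48 and 10.53 (difference 0.09, 95% interval -0.11 to 0.30, two-sided exact permutation p = 0.5). Slc6a3 was at 11.63, 11.76 and 11.86 against 11.78, 11.77 and 11.81 (difference -0.04, interval -0.25 to 0.17, exact permutation p = 0.7). Ddc, which makes dopamine from L-DOPA, differed by 0.02 (interval -0.18 to 0.22), and the dopamine receptor Drd2 by -0.04 (interval -0.26 to 0.17). These intervals leave room for differences as low as -0.26 (Drd2) and as high as 0.30 (Th).

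Gch1, the enzyme that starts synthesis of the cofactor of tyrosine hydroxylase, was the dopamine neuron gene with the smallest p. It was at 7.10, 6.99 and 6.95 at 10 mg/kg and 6.44, 6.55 and 6.62 at 1 mg/kg, a 1.39-fold higher mean without overlap (difference 0.48, SE 0.10, adjusted p = 0.82 by limma), and its second probe set was higher by 0.22 (SE 0.08). Slc18a2 is measured by a probe set that also names Pdzd8, at 10.47, 10.50 and 10.41 against 10.19, 10.21 and 10.35 (difference 0.21, interval -0.01 to 0.43, exact permutation p = 0.1, the smallest that 3 arrays against 3 allow). The homeobox factor En2 (0.24, SE 0.09), the guanylate cyclase receptor Gucy2c (0.41, SE 0.14) and Sncg, a relative of alpha-synuclein (0.12, SE 0.08), were likewise higher without overlap. Chrna4, a nicotinic receptor subunit, was lower in one probe set (6.02, 6.37 and 6.24 against 6.64, 6.71 and 6.56, difference -0.43, SE 0.10), at -0.04 in another and at 0.39 in the dimmest. Of the receptors and enzymes of dopamine and noradrenaline, Dbh, which makes noradrenaline, was at 4.71, 4.75 and 4.78 against 4.48, 4.42 and 4.24 (difference 0.37, SE 0.09), and Ppp1r1b (DARPP-32), the phosphatase inhibitor of neurons that receive dopamine, was at 5.12, 5.31 and 5.41 against 5.93, 5.37 and 5.73 (difference -0.39, SE 0.15).

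Neurotrophic and inflammatory genes were mostly dim or uneven between the replicates. Bdnf, a neurotrophin, was at 7.84, 6.78 and 6.79 against 6.23, 7.06 and 6.96 (difference 0.39, interval -0.54 to 1.31, exact permutation p = 0.6), and its sign rested on replicate number 1, without which it was -0.23. Ptgs2, an inducible prostaglandin synthase, had the same pattern (4.47, 3.91 and 3.78 against 3.36, 3.87 and 4.15, difference 0.25, exact permutation p = 0.5, and -0.17 without replicate number 1). Gdnf was near background in all arrays, at 2.94 to 2.98 against 3.03 to 3.07 (difference -0.10, interval -0.29 to 0.09, exact permutation p = 0.1). The cytokines Il1b (-0.24, exact permutation p = 0.1), Il6 (-0.10, exact permutation p = 0.4) and Tnf (0.02, exact permutation p = 0.8) were also below 4 in all arrays, where a difference has little range. Over the 27 measured cytokines, chemokines and induced genes the median was -0.01, with 12 higher and 15 lower. Icam1, an adhesion molecule, was at 4.21, 4.08 and 3.91 against 4.46, 4.50 and 4.44 (difference -0.40, SE 0.09), and Tnfrsf1a, the main receptor of Tnf, at 6.38, 6.17 and 6.21 against 6.50, 6.62 and 6.49 (difference -0.28, SE 0.10). The chemokine Ccl5 was higher, at 3.93, 4.04 and 4.01 against 3.65, 3.35 and 3.51 (difference 0.49, SE 0.10). Complement subunit C1qc was at 7.10, 7.40 and 7.04 against 7.41, 7.59 and 7.49 (difference -0.31, SE 0.09), and the complement inhibitor Cd55 differed by -0.30 (SE 0.11). Over the 13 measured complement genes, however, the median was -0.0064, with 6 higher and 7 lower. Genes of activated microglia had a median of 0.03 (11 higher and 10 lower of 21).

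**Figure D3:**
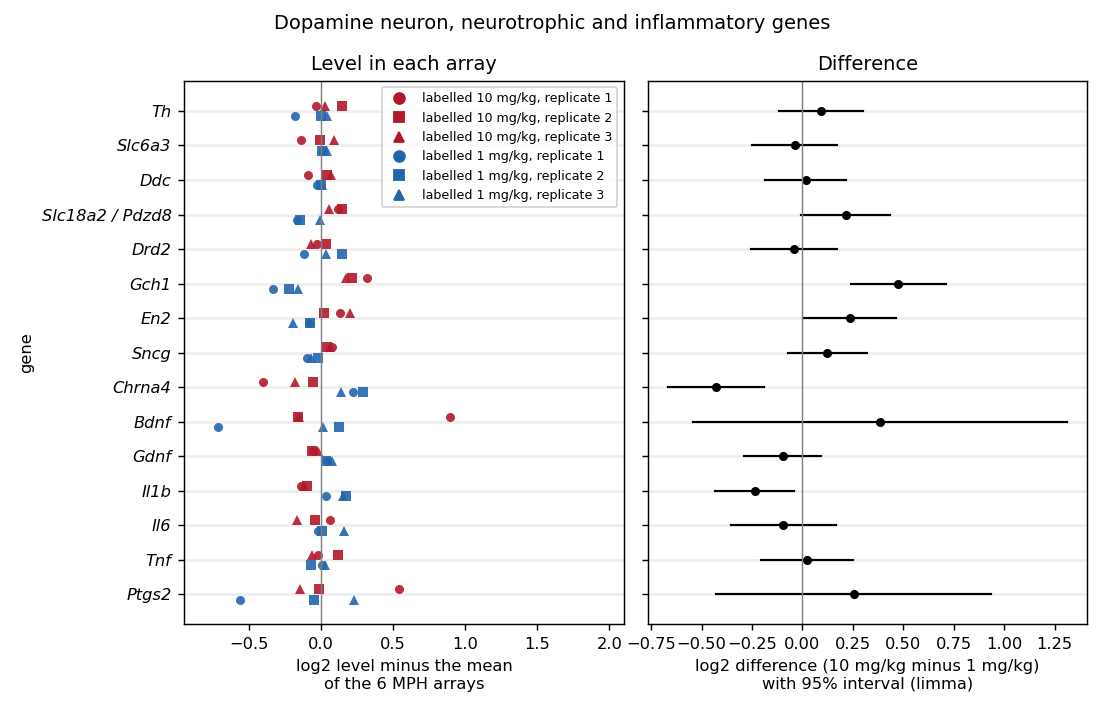
Left, log2 level of 15 genes in each MPH array minus the mean of the 6 arrays, with red for the label 10 mg/kg, blue for 1 mg/kg and a marker shape for each replicate. Right, the difference between the doses with its 95% interval from limma. Th, Slc6a3, Ddc and Drd2 have intervals that span 0, Gch1 and Chrna4 are among those that do not, and Bdnf and Ptgs2 have wide intervals with replicate 1 of both labels at opposite ends.

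Several groups of genes owed their difference to replicate number 1 of the 2 labels together. Because the averages of the replicate numbers were nearly equal, a deviation of 1 of these arrays appears with opposite sign in its partners. The 2 arrays are therefore not separate observations. Of 22 measured genes of cortical and hippocampal excitatory neurons, 19 were higher at 10 mg/kg, with a median of 0.35, but without replicate number 1 the median was -0.05 and 15 of 22 were lower. The list's mean was 0.76 in array 1 of the higher dose and -0.38 in array 1 of the lower dose. It was from -0.11 to -0.07 in arrays 2 and 3 of both doses. Saline replicate 1 was at -0.43 on this scale, and saline replicates 2 and 3 were at -0.13. Crym, a thyroid hormone binding protein of deep cortical layers, was at 7.90, 4.08 and 4.27 against 2.78, 4.08 and 4.04 (difference 1.78, SE 1.00, and 0.12 without replicate number 1). Icam5, an adhesion molecule of forebrain neurons, was at 7.19, 5.06 and 5.12 against 4.64, 5.08 and 5.34 (0.77, and -0.12 without), and Slc17a7, the cortical vesicular glutamate transporter, at 4.81, 3.57 and 3.54 against 3.29, 3.77 and 3.72 (0.38, and -0.19 without). Prdm8 (1.52), Vgll3 (1.38), Fam184b (1.12) and Myo5b (1.08), among the most positive differences of all named genes, followed the same array and were at 0.39, 0.54, 0.44 and 0.55 without replicate number 1. Dimmer probe sets of Fam184b did not follow (-0.10 and -0.08). Itpka (0.97, and 0.41 without), Neurod6 (1.03, and 0.36 without) and Lmo3 (0.47, and 0.33 without) stayed on the same side. Cux2, a factor of upper cortical layers, went the other way, at 8.07, 8.37 and 8.40 against 8.86, 8.58 and 8.75 (difference -0.45, SE 0.13), as did Rasgrp1 (-0.40, SE 0.08).

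Genes of the meninges and collagens were the most even case of this. All 17 were higher at 10 mg/kg (median 0.32), all 17 had their highest value of the 6 arrays in replicate 1 of that label, none was free of overlap, and without replicate number 1 the median was -0.20 with 14 of 17 lower. Igf2, a growth factor made by the meninges, was at 9.82, 8.29 and 7.81 against 7.80, 8.22 and 8.42, and Dcn, the proteoglycan decorin, at 9.67, 8.40 and 8.34 against 8.52, 8.99 and 8.62. The 19 measured myelin and oligodendrocyte genes stood on the opposite side, 18 of them lower (median -0.14, and 0.02 without replicate number 1), with 13 lowest in array 1 of the higher dose and all 19 highest in array 1 of the lower dose. Mbp, the myelin basic protein, was at 13.05, 13.54 and 13.38 against 13.70, 13.50 and 13.59. Homeostatic microglia genes (14 of 17 lower, median -0.12, and 0.02 without) had the same pattern, with P2ry12 at 7.62, 8.27 and 8.32 against 8.58, 8.17 and 8.10. The microglial chemokine receptor Cx3cr1 stayed lower (-0.30, and -0.18 without). With only replicate 1 at 10 mg/kg left out and no block, the cortical median was 0.04 (10 of 22 lower) and the meningeal -0.02 (10 of 17 lower). The myelin median was then -0.05 (14 of 19 lower) and the microglial -0.01 (9 of 17 lower). With that array alone left out, the sign of the cortical, myelin and microglial medians did not turn. Replicate 1 at 1 mg/kg stays in that fit, and same-numbered arrays stand opposite to each other in these values. The sign therefore does not show which of the arrays the difference comes from. How much of each list's difference comes from either array beyond the left-out values was not tested.

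**Figure D4:**
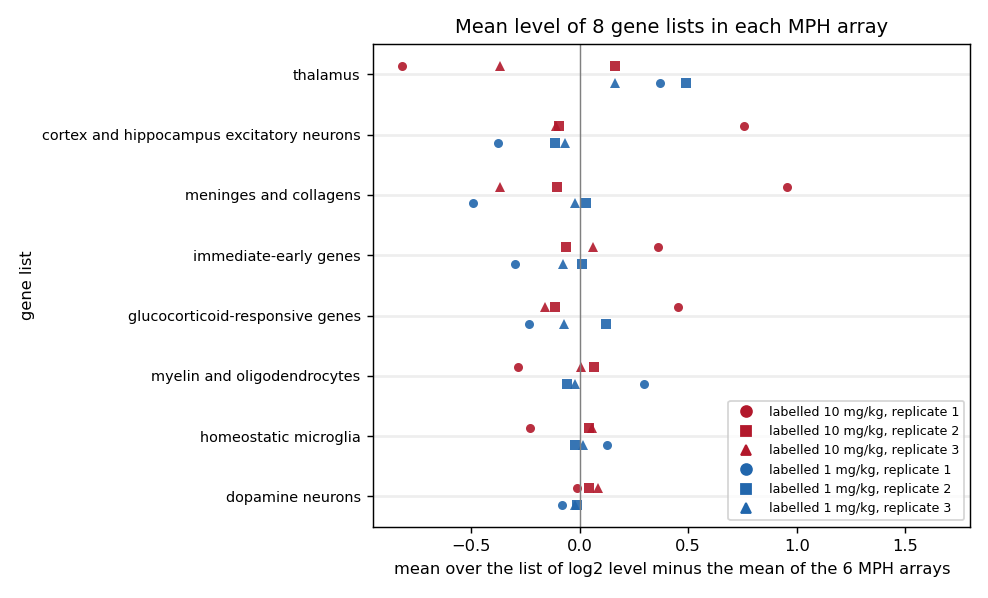
Mean of 8 gene lists in each MPH array, relative to the mean of the 6 arrays on the log2 scale, with red for the label 10 mg/kg, blue for 1 mg/kg and a marker shape for each replicate. Replicate 1 of the 2 labels (circles) lies at opposite ends for the cortical, meningeal, immediate-early, glucocorticoid and myelin lists, while the dopamine neuron means lie close together.

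Immediate-early genes are transcription factors and effectors that follow neuronal activity within minutes. They were also mostly higher at 10 mg/kg, 19 of 23 with a median of 0.14. The median was -0.04 without replicate number 1 of both labels, and 0.03 without only replicate 1 at 10 mg/kg, with no block. Fos was at 9.43, 8.34 and 9.08 against 7.73, 8.51 and 8.38 (difference 0.74, SE 0.33, and 0.27 without). Egr1 was at 9.50, 9.10 and 9.56 against 8.61, 9.22 and 8.73 (difference 0.53, SE 0.21), and in both genes array 2 of the higher dose lay below the highest array of the lower dose. The local pooled error test called these 2 genes of the list. Arc, an effector at synapses, stood out from these by its evenness, at 4.91, 4.76 and 4.72 against 4.31, 4.31 and 4.26, a 1.41-fold higher mean without overlap (difference 0.50, SE 0.08, adjusted p = 0.82 by limma, and 0.45 without replicate number 1). Arc was chosen after its values were seen. Junb was at 5.04, 4.59 and 4.72 against 3.89, 4.56 and 4.28 (difference 0.54, and 0.23 without). The heat shock gene Hspa1b was uneven within both labels, at 10.28, 8.57 and 9.93 against 8.01, 8.63 and 9.50. Glucocorticoid-responsive genes had a median of 0.10, which turned to -0.12 without replicate number 1. It was -0.07 without only replicate 1 at 10 mg/kg, with no block.

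Genes that most cells use were close to equal between the doses. The medians were -0.02 for 31 oxidative phosphorylation subunits, -0.02 for 23 cytosolic ribosomal proteins, 0.02 for 26 proteasome subunits, 1e-04 for 21 DNA repair genes, 0.04 for 20 apoptosis genes and -0.0015 for 22 antioxidant and quinone detoxifying enzymes. Astrocyte genes had a median of -0.01, and Mlc1, a membrane protein of astrocyte end-feet, was lower in all arrays (9.35, 9.31 and 9.24 against 9.70, 9.48 and 9.67, difference -0.31, SE 0.09). Among receptors and channels, the kainate receptor subunits Grik2 (6.84, 6.56 and 6.44 against 6.04, 5.96 and 6.36, difference 0.49, SE 0.15) and Grik3 (7.01, 7.16 and 7.10 against 7.22, 7.33 and 7.33, difference -0.20, SE 0.08) lay on opposite sides of 0, and the potassium channel Kcnj9 differed by -0.30 (SE 0.09). Ntrk3, the receptor of neurotrophin 3, was at 8.36, 7.85 and 7.88 against 7.22, 7.63 and 7.67 (difference 0.52, SE 0.20, and 0.21 without replicate number 1). Its dimmer probe sets lay between -0.19 and 0.52, on both sides of 0. Prph, an intermediate filament of motor and peripheral neurons, was higher at 5.10, 4.38 and 4.61 against 3.88, 3.96 and 4.11 (difference 0.71, SE 0.17).

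**Figure D5:**
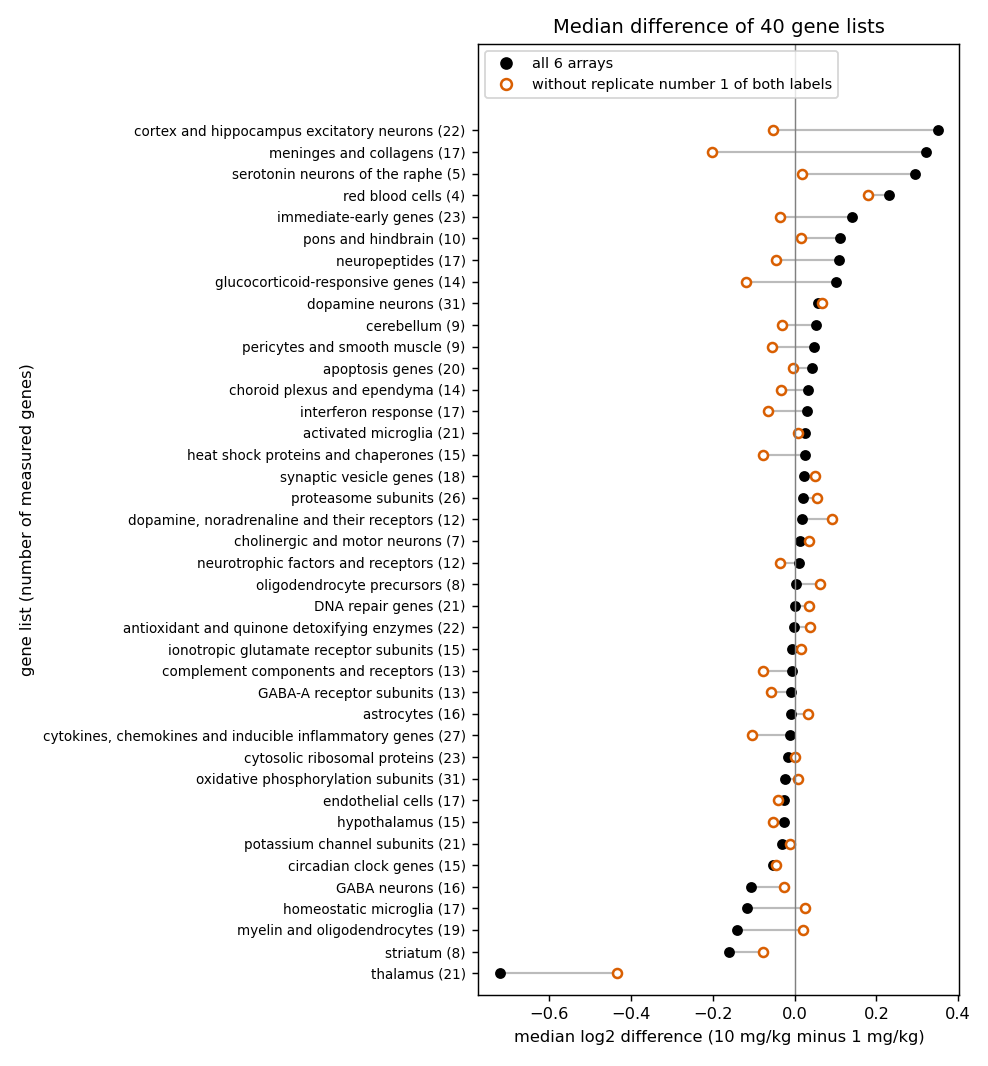
Median log2 difference (10 mg/kg minus 1 mg/kg, horizontal axis) of each gene list, with filled points for all 6 arrays and open points without replicate number 1 of both labels. The thalamus list lies at -0.72 and -0.43, the cortical and meningeal lists cross 0 when replicate number 1 is left out, and lists of genes most cells use lie near 0 in both.

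Large differences were often carried by 1 array. Of 45037 probe sets, 28 were at least 1 higher and 20 at least 1 lower at 10 mg/kg, of which 16 and 11 did not overlap, and without replicate number 1 there were 17 and 14. Xist had the most negative difference of all named genes (-2.04, SE 1.19), through array 2 of the lower dose, and was at -0.05 without replicate number 2, while Eif2s3y (1.23), Kdm5d (0.92) and Uty (0.99) were at 0.04, 0.24 and 0.46. Pmch, the precursor of melanin-concentrating hormone of the lateral hypothalamus, was at 5.85, 10.95 and 11.63 against 10.58, 10.50 and 8.44. Hcrt, the orexin precursor of the same region, was at 3.91, 5.71 and 6.98 against 3.78, 5.55 and 4.02. Cartpt, the precursor of the CART peptides, was at 8.29, 6.67 and 6.61 against 5.83, 5.70 and 6.72 (difference 1.11, SE 0.45). Acot10, a mitochondrial thioesterase, was at 8.79, 8.13 and 7.97 against 5.57, 7.99 and 7.82, with replicate 1 lowest at 1 mg/kg and highest at 10 mg/kg, and its difference of 1.17 was 0.15 without replicate number 1. Gbp3, an interferon-induced GTPase, was lower without overlap (4.98, 5.74 and 5.62 against 5.94, 6.11 and 5.80, difference -0.51, SE 0.16), while the interferon list as a whole had a median of 0.03.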

How the data were processed

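The log2 values were deposited by the authors, who summarised the probe intensities of all 9 arrays (3 for saline and 3 for each dose) by Robust Multichip Average, version not given. ComBat for the batch of the 3 replicates is named in the methods, without a statement of whether these values went through it. Groups and replicate numbers were taken from the labels. Genes were named through the platform annotation (28898 probe sets with 1 gene, 551 with several, 15588 with none), and 28689 were found by Entrez ID in GRCm38.p6, with 0 symbols differing.

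The difference 10 mg/kg minus 1 mg/kg was fitted for 45037 probe sets on the 6 MPH arrays (limma 3.58.1, R 4.3.3), with the replicate number as an additive block because a replicate batch is described, and with Benjamini-Hochberg adjustment over all probe sets. Same-numbered deviations from the group means correlated at -0.54, -0.32 and -0.41, as values centred within each number would in any case, so this check does not show whether the numbers pair the samples. Methods were tested on simulated data. A list gene is read from its brightest single-gene probe set, and lists are given as counts and medians with no set test. The rule for named genes took, at a mean above 5, the 12 smallest p without overlap and the 10 largest differences per direction, 2 genes per list, and 9 genes measured by qPCR. Some of these are not printed, and further list members were added after their values were seen. The members and the 41 lists were chosen with earlier results of these data known. The study's published lists served only to check the labels.

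Alternatives were no block, all 9 arrays in the fit, a second quantile normalization, median centring, a filter at a mean of 5, a trend with the robust option, array weights, a local pooled error test coded for this purpose, an adjusted p of 0.1, and each array left out. Leaving out each array with no block was added after seeing the data. The number of arrays limits the precision.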

Additional observations from a re-analysis of the deposited data

How the results depend on the processing

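The count of 0 called probe sets was 1 with no replicate block and 204 by the local pooled error test. It stayed at 0 with all 9 arrays in the fit, a second quantile normalization, median centring, a mean above 5, the trend with the robust option, array weights and an adjusted p of 0.1 (smallest adjusted p by limma 0.105 to 0.936), and with each array left out in turn with the replicate block, where leaving out an array also removes the weight of its same-numbered partner. With no replicate block and each array left out, the count was 0 to 1, the 1 without replicate 1 at 10 mg/kg. At an unadjusted p of 0.05 the counts were 1765 to 3714 with an array left out and the block, 3933 to 4931 with an array left out and no block, and 948 with a mean above 5, compared with 2689. Probe sets at least 1 higher and lower, 28 and 20, were 17 and 14 without replicate number 1, 73 and 28 without number 2, 94 and 31 without number 3, 13 and 16 with array weights, and 12 and 19 by the local pooled error test.

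The genes whose difference is printed above kept their direction in each alternative that gave a value, except those that follow, none of which limma called. With each array left out and the replicate block, the log2 difference ranged from -0.084 to 0.021 for Slc6a3, -0.23 to 0.72 for Bdnf, -0.19 to 0.018 for Il6, -0.059 to 0.082 for Tnf, -0.17 to 0.57 for Ptgs2, -0.12 to 1.27 for Icam5, -2.14 to 1.82 for Pmch, -0.0066 to 0.19 for Slc17a6, -0.38 to 0.45 for Zic4, -0.0094 to 0.055 for Ddc, -0.19 to 0.67 for Slc17a7, -0.27 to 1.04 for Igf2, -0.44 to 0.43 for Dcn and -0.43 to 0.16 for P2ry12. By the local pooled error test, which compares medians, it was -0.17 for Bdnf, -0.026 for Tnf, 0.46 for Pmch, -0.091 for Zic4, -0.14 for Slc17a7, -0.22 for Dcn and 0.10 for P2ry12, and with array weights 0.49 for Pmch, -0.052 for Zic4 and -0.071 for Dcn. With no replicate block and without replicate 1 at 10 mg/kg it was 0.023 for Slc6a3, 1.45 for Pmch, -0.087 for Zic4, -0.037 for Slc17a7, -0.10 for Igf2, -0.34 for Dcn and 0.011 for P2ry12, and without replicate 1 at 1 mg/kg 0.0081 for Pmch, -0.16 for Zic4 and -9e-04 for Dcn. Without replicate 2 at 10 mg/kg it was -0.029 for Tnf and -0.0023 for Ddc, without replicate 2 at 1 mg/kg -0.0054 for Tnf and 0.019 for Drd2, and without replicate 3 at 10 mg/kg -0.015 for Ddc. Beyond the arrays left out, the cause was not tested.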

Other observations

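Some genes in no list were far from the rest in a single array, with values unlike those of the other replicates of its label. Acot9, a mitochondrial thioesterase related to Acot10, was at 5.58 in replicate 1 at 1 mg/kg and from 7.72 to 8.35 in the other 5 MPH arrays. Galc, the enzyme that breaks down the myelin lipid galactosylceramide, was at 4.41 in the same array and from 6.43 to 7.36 in the others, and Ssbp2, a DNA-binding protein, at 3.92 against 5.92 to 7.70. Ptgds, which makes prostaglandin D2 and is strongly expressed in the meninges and choroid plexus, was at 13.96 in replicate 1 at 10 mg/kg, 11.56 in replicate 1 at 1 mg/kg and 12.70 to 13.18 in the other 4. Lztfl1, a ciliary protein, was at 4.58 in replicate 2 at 1 mg/kg, where the Y-linked genes were low as well, and from 6.27 to 7.31 in the others. These values are given without an explanation, and none of these genes was called by limma.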
